A study of Rattus norvegicus with 10 samples.

Results

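Glucocorticoid and stress hormone response genes were followed in the trigeminal ganglion (TG) of rats with oral ulcerative mucositis (OUM). The group held 10 genes, Fkbp5, Tsc22d3, Sgk1, Zbtb16, Klf9, Ddit4, Hif3a, Map3k6, Cdkn1a and Pdk4, which were chosen by name among the 15507 genes with a symbol on the array. The choice was made with earlier results of these data known, so counts of members beside all genes are descriptions and not tests. They were read by 12 of 30367 probes, with 2 probes each for Cdkn1a and Ddit4 and 1 probe for each other gene. A gene was tested when the scanner software marked its signal as well above background in every rat of OUM, of naive, or of both, which held for 9 of the 10 and for 11988 genes in all. Pdk4 did not meet this.

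The study asked which transcripts of the TG, the ganglion that holds the sensory neurons of the face and mouth, differ once an oral ulcer has formed. In the OUM group, a filter paper with 50% acetic acid was laid on the labial fornix below the lower incisors of anaesthetised male Wistar rats, which were 8 weeks old in the study's methods, and whole TGs of both sides were taken on day 2. Naive rats of the same strain and sex had anaesthesia alone. Each group had 5 rats with 1 array (1-colour Agilent) per rat, and since both groups were anaesthetised and handled, that exposure is shared and cannot be seen in the comparison. Whole ganglia were used, so fewer cells of a type and less RNA per cell cannot be told apart.

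Cortisol in humans and corticosterone in rats are released by the adrenal cortex under the control of the hypothalamus and pituitary, with a daily rhythm and a surge under stress. Inside cells the hormone binds the glucocorticoid receptor, which is held ready by HSP90 and its co-chaperones, moves to the nucleus and binds DNA at paired half-sites. Transcripts such as those of Fkbp5, Tsc22d3, Klf9 and Zbtb16 follow the hormone in many tissues and are widely used as its readout, whereas Ddit4, Cdkn1a, Hif3a and Pdk4 also answer to hypoxia, DNA damage, fasting or other signals.

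Levels are given as the log2 of the scanner's background-subtracted signal minus the 75th percentile of the array, so that 0 is the signal of that percentile, and 1 unit is a doubling. That percentile was 1910 to 2175 signal units, and 70.9% to 77.2% of the probes of an array were well above background. The arrays lay on 2 slides: slide 1 held OUM rats 1, 2 and 3 and naive rats 1, 2, 3 and 5, and slide 2 held OUM rats 4 and 5 and naive rat 4. The markers of TG cells were present, with a mean level of 4.37 to 4.67 in OUM rats and 4.44 to 4.60 in naive rats over 11 neuronal genes, and of 3.29 to 3.48 in OUM rats and 3.22 to 3.44 in naive rats over 12 genes of satellite glia and Schwann cells. Pituitary hormone genes, which a ganglion dissected from the skull base can carry, had a mean level of 0.43 and 0.084 on OUM arrays 2 and 1 and 0.0027 on naive array 1, and between -4.88 and -1.42 on the other 7 arrays. No probe of the array passed an adjusted p of 0.05 in limma (percent called 0 of 21969 probes, lowest adjusted p 0.0589), with 1816 probes at an unadjusted p under 0.05.

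The promoters are shown first, since the receptor acts on DNA and the members differ in what their start sites hold. RefSeq windows (GRCr8, 250 bases before to 50 bases after a start) existed for 9 of the 10 genes, in 14 windows. Each window was searched on both strands for the full palindrome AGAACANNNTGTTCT and for its core GNACANNNTGTNC, which lies inside the full palindrome. The core was found in 1 of the 14 windows, that of Map3k6, and in 0.439% of all 33469 windows, while the full palindrome was found in none of the 14 and in 0.0149% of all. The half-site AGAACA and the E-box CACGTG were found in none of the 14 windows, against 20.7% and 6.42% of all windows. The FOXO site TGTTTAC was found in Klf9 and in 1 of the 3 windows of Tsc22d3, against 3.78% of all. A match is a description of the letters and not of binding, and most glucocorticoid receptor sites known in rat and mouse lie outside such short windows.

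The windows of Map3k6 (chr5:150723995-150724294, plus strand), Klf9 (chr1:230126396-230126695, plus strand), Tsc22d3 (chrX:109009985-109010284, minus strand) and Fkbp5 (chr20:6543506-6543805, minus strand) follow, the first 3 because they hold a match and Fkbp5 because the levels below turn on it. Capitals mark the palindrome core in Map3k6, 181 bases before the start, and the FOXO site in Klf9 and Tsc22d3, 133 and 162 bases before the start.
Map3k6: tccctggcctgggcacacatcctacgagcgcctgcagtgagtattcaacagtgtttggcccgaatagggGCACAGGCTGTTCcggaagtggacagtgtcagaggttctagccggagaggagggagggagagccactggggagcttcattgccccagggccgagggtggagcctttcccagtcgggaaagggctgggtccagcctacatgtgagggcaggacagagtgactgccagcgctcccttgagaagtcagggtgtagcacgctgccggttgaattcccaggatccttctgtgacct
Klf9: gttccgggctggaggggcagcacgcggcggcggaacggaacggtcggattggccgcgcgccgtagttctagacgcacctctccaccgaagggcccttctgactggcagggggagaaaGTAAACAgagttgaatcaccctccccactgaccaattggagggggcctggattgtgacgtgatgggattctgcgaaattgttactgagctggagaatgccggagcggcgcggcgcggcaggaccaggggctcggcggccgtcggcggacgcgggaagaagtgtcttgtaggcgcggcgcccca
Tsc22d3: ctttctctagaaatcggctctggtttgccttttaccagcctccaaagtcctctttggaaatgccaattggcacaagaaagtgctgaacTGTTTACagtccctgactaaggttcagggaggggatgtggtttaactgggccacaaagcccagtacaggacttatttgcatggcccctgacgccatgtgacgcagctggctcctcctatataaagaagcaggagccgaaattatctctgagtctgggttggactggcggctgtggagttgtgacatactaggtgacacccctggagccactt
Fkbp5: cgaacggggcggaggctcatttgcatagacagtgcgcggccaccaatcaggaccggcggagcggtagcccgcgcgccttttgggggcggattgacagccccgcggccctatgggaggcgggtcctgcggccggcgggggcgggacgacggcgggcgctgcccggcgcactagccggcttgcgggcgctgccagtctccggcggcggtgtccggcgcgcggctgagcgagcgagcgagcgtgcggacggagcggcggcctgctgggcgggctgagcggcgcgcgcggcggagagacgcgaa

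The 8 members detected on all 10 arrays each averaged higher in OUM than in naive TG, with a median log2 difference of 0.30, against 0.0024 over the 11537 genes detected so, of which 51.0% were above 0. Hif3a, the other tested member, entered the test through the OUM arrays alone and is left out of that count. Since the members were chosen with earlier results of these data known, their excess over all genes is described and was not tested. At an unadjusted p under 0.05 in limma, 2 of the 9 tested members were higher, Map3k6 and Sgk1, and none was lower, while over all 11988 genes tested 5.33% were higher and 3.04% were lower. None of the 9 passed an adjusted p of 0.05. In 1 member, Map3k6, every OUM array lay above every naive array, an arrangement seen in 1.23% of all genes. The direction was not the same on both slides: 7 of the 8 members were above 0 within slide 1 with a median difference of 0.42, and 3 of 8 within slide 2 with a median of -0.071, where naive rat 4 was the only naive rat. With the slide as a block the median was 0.25 and 7 of 8 were above 0. Without naive rat 4, 5 of the 9 members (Map3k6, Sgk1, Fkbp5, Klf9 and Tsc22d3) were higher at an unadjusted p under 0.05, against 5.09% of all genes higher and 4.92% lower in that fit, and still none passed the adjusted threshold. Without the rats rich in pituitary transcripts (OUM 1 and 2 and naive 1), the difference was 0.13 for Fkbp5, 0.085 for Klf9 and 0.16 for Ddit4. In that setting it was -0.12 for Zbtb16, 0.28 for Map3k6, 0.38 for Sgk1 and 0.131 for Tsc22d3. All of these were smaller than over all arrays, that of Tsc22d3 only slightly. The difference was larger for Hif3a, at 0.67, and for the brighter Cdkn1a probe, at 0.163.

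**Figure D1:**
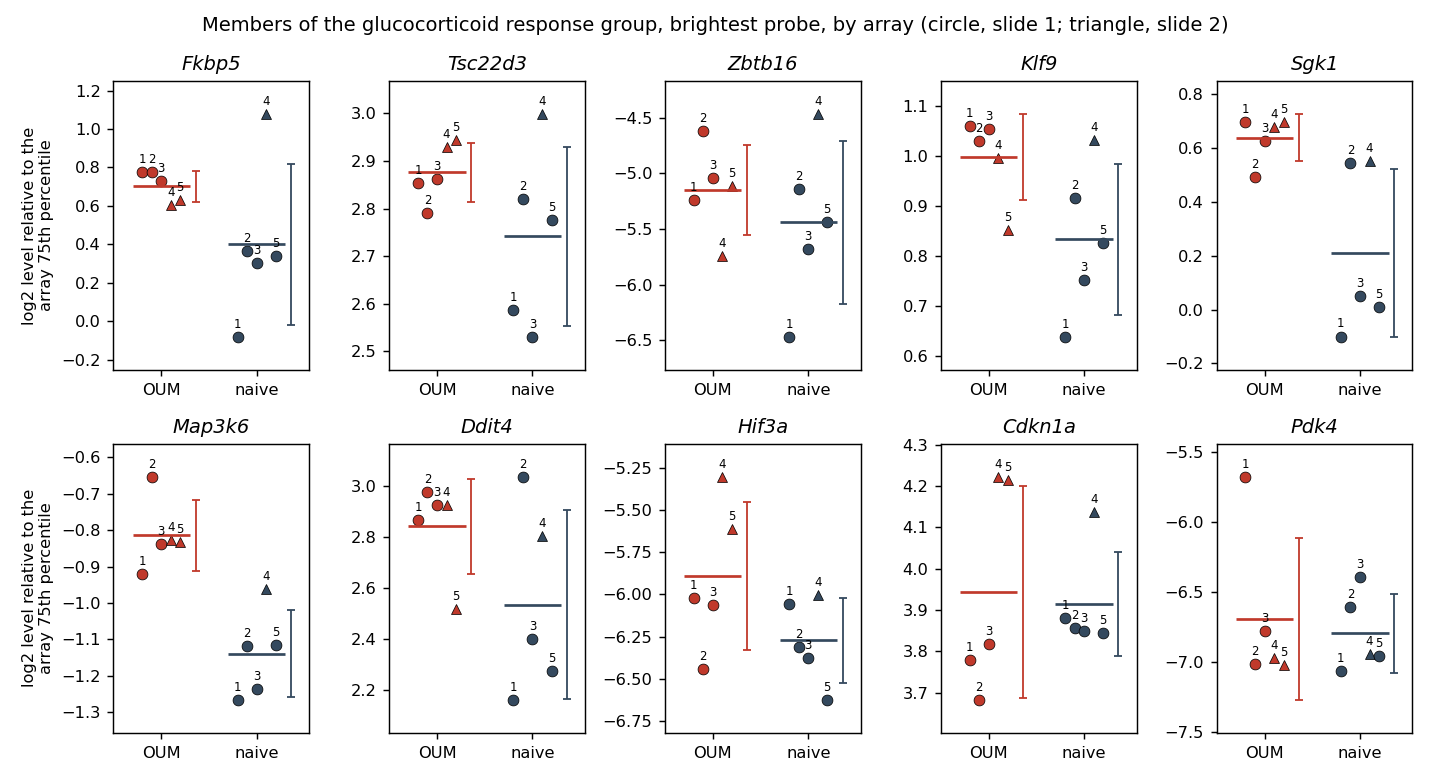
Level of the 10 members on each array (y axis, log2 relative to the array's 75th percentile, with a separate scale per gene) in OUM and naive rats, with the rat number above each point, circles for slide 1 and triangles for slide 2, lines for the mean and bars for the SD (n = 5 each). Fkbp5 lies between 0.60 and 0.78 in the 5 OUM rats and between -0.08 and 1.08 in the 5 naive rats, and the groups of Map3k6 do not overlap.

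Map3k6, a stress-activated kinase upstream of JNK and p38, was the member with the lowest p. Its level was -0.92, -0.65, -0.84, -0.83 and -0.83 in OUM rats 1 to 5, against -1.27, -1.12, -1.24, -0.96 and -1.12 in naive rats 1 to 5. The lowest OUM rat stood just above naive rat 4, the highest naive rat, so the groups did not overlap. The log2 difference was 0.33 ± 0.07 (SE), a 1.25-fold level with a 95% interval of 1.13 to 1.39, with an adjusted p of 0.297 in limma. The two-sided exact permutation test of the rats' labels gave p = 0.00794, the smallest that 5 against 5 rats allow. Within slides the difference was 0.38 on slide 1 and 0.13 on slide 2, and 0.31 with the slide as a block.

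Sgk1 encodes a kinase that acts on ion channels and transporters and is induced by glucocorticoids and mineralocorticoids. It measured 0.70, 0.49, 0.62, 0.68 and 0.70 in OUM rats 1 to 5, against -0.10, 0.54, 0.05, 0.55 and 0.01 in naive rats 1 to 5. The OUM rats were close together, whereas naive rats 2 and 4 lay above OUM rat 2 and the other 3 naive rats lay near 0. The log2 difference of 0.43 ± 0.13 (SE) (95% interval 0.13 to 0.72) corresponded to a 1.34-fold level, with an adjusted p of 0.508 in limma and an exact permutation p of 0.0238. It was 0.48 on slide 1, 0.13 on slide 2 and 0.38 with the slide as a block.

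Fkbp5 encodes a co-chaperone of HSP90 that lowers the affinity of the receptor for the hormone and is itself induced by it, which makes a short feedback loop. The level was 0.78, 0.77, 0.73, 0.60 and 0.63 in OUM rats 1 to 5, against -0.08, 0.36, 0.30, 1.08 and 0.34 in naive rats 1 to 5. Naive rats 1, 2, 3 and 5 lay below every OUM rat, and naive rat 4 lay above every OUM rat. The log2 difference was 0.30 ± 0.17 (SE) over all arrays, a 1.23-fold level (95% interval 0.946 to 1.61), with an adjusted p of 0.700 in limma and an exact permutation p of 0.183. It was 0.53 on slide 1, -0.46 on slide 2 and 0.25 with the slide as a block. Without naive rat 4 it was 0.47 and the unadjusted limma p was under 0.05, and without naive rat 1 it was 0.18 and the p was above 0.05.

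Tsc22d3, whose product GILZ (glucocorticoid-induced leucine zipper) restrains NF-kB and AP-1, measured 2.85, 2.79, 2.86, 2.93 and 2.94 in OUM rats 1 to 5, against 2.59, 2.82, 2.53, 3.00 and 2.78 in naive rats 1 to 5. Naive rat 4 was again the highest of the 10 arrays, and naive rats 1, 3 and 5 were below every OUM rat. The log2 difference was 0.13 ± 0.08 (SE), with an adjusted p of 0.737 in limma and an exact permutation p of 0.198. It was 0.16 on slide 1 and -0.061 on slide 2, 0.096 with the slide as a block, 0.20 without naive rat 4, where the unadjusted limma p was under 0.05, and 0.081 without naive rat 3, where it was above.

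Klf9 is a Krüppel-like transcription factor that glucocorticoids and thyroid hormone induce. The level was 1.06, 1.03, 1.05, 1.00 and 0.85 in OUM rats 1 to 5, against 0.64, 0.92, 0.75, 1.03 and 0.83 in naive rats 1 to 5. Naive rats 1, 3 and 5 lay below every OUM rat, and naive rats 2 and 4 lay within the OUM range. The log2 difference of 0.16 ± 0.08 (SE) had an adjusted p of 0.616 in limma and an exact permutation p of 0.0794, and was 0.26 on slide 1, -0.11 on slide 2 and 0.16 with the slide as a block. Its unadjusted limma p was under 0.05 without naive rat 4 and also without OUM rat 5. Without naive rat 1 the difference was 0.12 and the p was above 0.05.

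Zbtb16, a zinc finger repressor also called PLZF, had a low signal that was well above background on all 10 arrays. It measured -5.24, -4.62, -5.05, -5.74 and -5.12 in OUM rats 1 to 5, against -6.47, -5.14, -5.68, -4.47 and -5.44 in naive rats 1 to 5. The highest and the lowest of the 10 arrays were both naive, rats 4 and 1. The log2 difference was 0.29 ± 0.33 (SE) with an adjusted p of 0.866 in limma and an exact permutation p of 0.476. It was 0.72 on slide 1, -0.96 on slide 2 and 0.25 with the slide as a block. With OUM rats 1 and 2 and naive rat 1, the rats rich in pituitary transcripts, left out, it was -0.12. With 1 array left out it ran from 0.032 without naive rat 1 to 0.53 without naive rat 4, and with the normexp background it was 0.065.

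Ddit4 encodes REDD1, an inhibitor of mTORC1 that hypoxia, energy stress and glucocorticoids induce. On its brighter probe it measured 2.87, 2.98, 2.92, 2.92 and 2.52 in OUM rats 1 to 5, against 2.16, 3.03, 2.40, 2.80 and 2.27 in naive rats 1 to 5. OUM rat 5 stood below the other 4 OUM rats, and naive rats 2 and 4 stood above the other 3 naive rats. The log2 difference was 0.31 ± 0.17 (SE) with an adjusted p of 0.684 in limma and an exact permutation p of 0.111, and the second probe gave 0.30 ± 0.18 with an exact permutation p of 0.167. Without naive rat 1 the brighter probe differed by 0.215 and the second probe by 0.19. Both probes were below 0 within slide 2, at -0.082 and -0.023, and above 0 within slide 1, at 0.46 and 0.43. With the slide as a block the brighter probe gave 0.31, and its unadjusted limma p was under 0.05 without OUM rat 5 and also without naive rat 2.

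Cdkn1a, which encodes the p21 inhibitor of cyclin-dependent kinases and is a standard p53 target, had 2 probes that did not move together. The bright probe measured 3.78, 3.68, 3.82, 4.22 and 4.22 in OUM rats 1 to 5, against 3.88, 3.86, 3.85, 4.14 and 3.84 in naive rats 1 to 5, so the 3 highest arrays were the 3 of slide 2. Its log2 difference was 0.029 ± 0.12 (SE) with an exact permutation p of 0.881, and -0.048 with the slide as a block. The dim probe measured -0.86, -0.26, -0.62, -0.56 and -0.71 in OUM rats 1 to 5, against -1.04, -0.94, -0.80, -0.94 and -0.87 in naive rats 1 to 5. The dim probe was thus below the naive range in no OUM rat and above it in 4, with a log2 difference of 0.32 ± 0.10, an adjusted p of 0.511 in limma and an exact permutation p of 0.0159. This difference was 0.33 on slide 1, 0.31 on slide 2 and 0.33 with the slide as a block.

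Hif3a, a member of the hypoxia-inducible factor family, was detected on 5 of 5 OUM arrays and on 3 of 5 naive arrays, so its difference is not an exact fold. It measured -6.02, -6.44, -6.06, -5.31 and -5.61 in OUM rats 1 to 5, against -6.05, -6.31, -6.37, -6.00 and -6.62 in naive rats 1 to 5. OUM rats 4 and 5 were above every naive rat, and the other OUM rats lay within the naive range. Naive rat 4 came next after OUM rats 4 and 5, so the arrays of slide 2 were the highest. The log2 difference was 0.38 ± 0.20 (SE) with an adjusted p of 0.676 in limma and an exact permutation p of 0.167. It was 0.17 on slide 1, 0.54 on slide 2 and 0.27 with the slide as a block. Without OUM rat 2 it was 0.52 and the unadjusted limma p was under 0.05, without OUM rat 4 it was 0.24 and the p was above 0.05, and with the normexp background it was 0.14 and the p was again under 0.05. Pdk4, a kinase that turns off pyruvate dehydrogenase in fasting, was well above background on 1 of 5 OUM arrays and on 2 of 5 naive arrays, and no fold is given. Its measured level was between -7.02 and -5.68 in OUM rats, with OUM rat 1 the highest, and between -7.06 and -6.39 in naive rats.

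**Figure D2:**
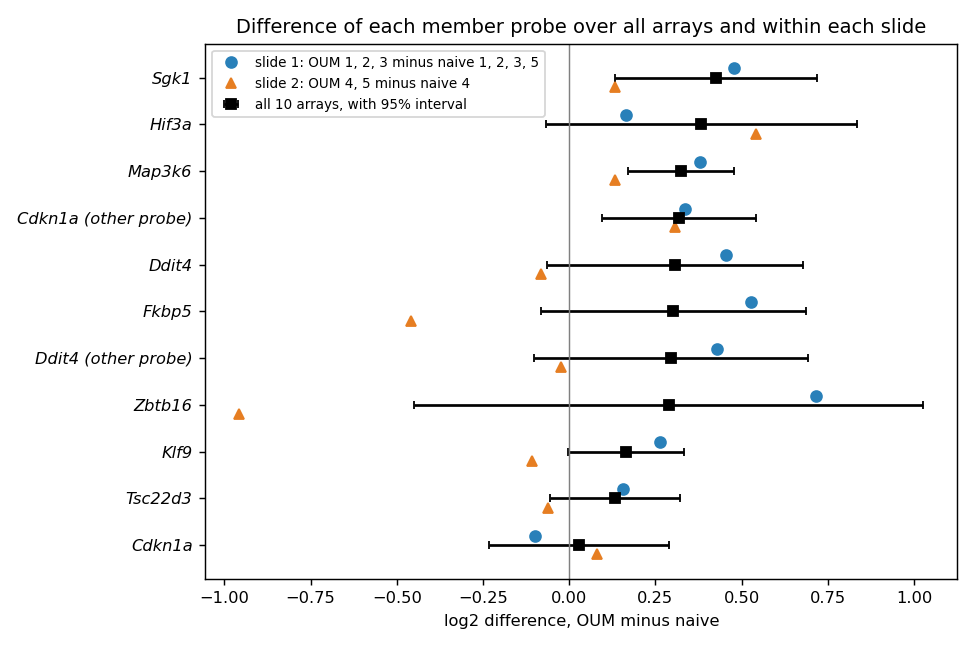
Log2 difference, OUM minus naive (x axis), of the 11 tested member probes (y axis): squares with 95% limma intervals for all 10 arrays, circles within slide 1 and triangles within slide 2. Fkbp5 is 0.53 on slide 1 and -0.46 on slide 2 and Zbtb16 is 0.72 and -0.96, while Map3k6, Sgk1, Hif3a and the other Cdkn1a probe are above 0 on both.

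Most members differed more between naive rats than between OUM rats. The SD over 5 rats was 0.08 in OUM and 0.42 in naive TG for Fkbp5, 0.09 in OUM and 0.31 in naive TG for Sgk1, and 0.06 in OUM and 0.19 in naive TG for Tsc22d3. The naive SD was the larger in 7 of the 9 members, and in 36.3% of all genes, with Cdkn1a and Hif3a as the exceptions. The median ratio of the naive to the OUM SD was 1.82 over the members and 0.831 over all genes. Without naive rat 4, a choice made after the values were seen, the naive SD was still larger in 6 of 9 members and in 28.6% of all genes, with median ratios of 1.41 and 0.701. No test was made of these counts, since members that move together are not independent.

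**Figure D3:**
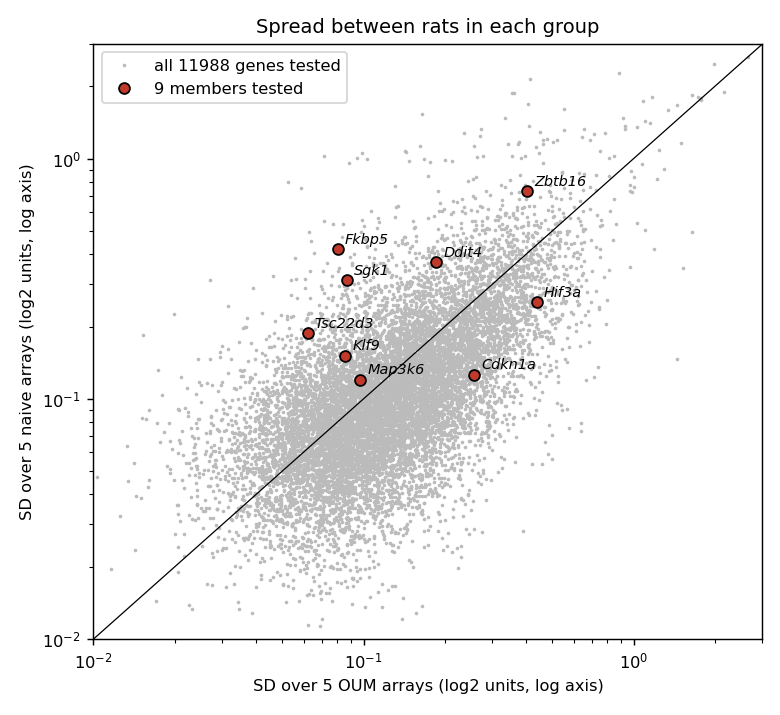
SD over the 5 OUM rats (x axis) against SD over the 5 naive rats (y axis), both in log2 units on log axes, for 11988 genes (grey) and the 9 tested members (red), with the line of equal SD. Of the 9 members 7 lie above the line, and Fkbp5 lies farthest from it with 0.08 in OUM and 0.42 in naive rats.

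Several members varied together over the arrays. The share of such pairs among all genes is not given here, so the counts of pairs below have no background beside them. The difference between the groups is part of each r unless the group means were removed. Of the 36 pairs among the 9 members, 14 had a Pearson correlation over the 10 arrays with an adjusted p under 0.05 by permutation, adjusted over the 36 pairs, and 1 had so by Spearman's rank. That pair was Fkbp5 and Klf9, with r = 0.888 (permutation p = 0.00067, adjusted 0.0214) and rho = 0.903 (permutation p = 0.00072, adjusted 0.0259). Its r was 0.848 without naive rats 1 and 4, the farthest from the Fkbp5 median, 0.967 over the 7 arrays of slide 1 and 0.852 once the mean of each group was removed. Fkbp5 and Zbtb16 had r = 0.868 (permutation p = 0.00172, adjusted 0.0214) and rho = 0.794 (permutation p = 0.0092, adjusted 0.139), which fell to r = 0.571 without naive rats 1 and 4 and rests in part on them. Sgk1 and Tsc22d3 had r = 0.831 (permutation p = 0.00335, adjusted 0.0297) and rho = 0.770 (permutation p = 0.0127, adjusted 0.139), and r was 0.884 without naive rats 1 and 5.

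The 21 pairs among Fkbp5, Klf9, Sgk1, Tsc22d3, Zbtb16, Ddit4 and Map3k6, a set singled out after the correlations were seen, had r between 0.597 and 0.888. Over slide 1 they had r between 0.696 and 0.967, with the group means removed between 0.434 and 0.878, with the 2 farthest arrays left out between 0.154 and 0.897, and without the pituitary-rich arrays between 0.253 and 0.841. Their rho was between 0.321 and 0.903. The 15 pairs with Hif3a or Cdkn1a had r between -0.149 and 0.800, and between -0.91 and 0.362 over slide 1, where Cdkn1a had -0.91 with Map3k6 and -0.788 with Fkbp5. Their highest, Cdkn1a with Hif3a, was 0.139 over slide 1. The arrays highest in both were OUM rats 4 and 5, followed by naive rat 4, which are the arrays of slide 2. All these correlations share the same 10 RNA samples, so a difference between the samples that touches many genes enters each of them.

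**Figure D4:**
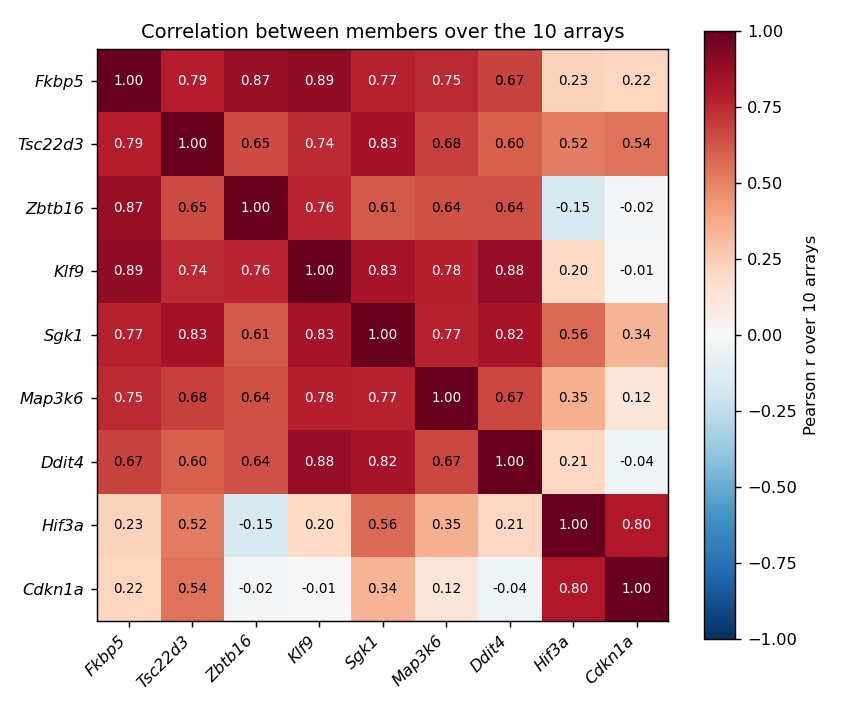
Pearson correlation over the 10 arrays between each pair of the 9 tested members (both axes), with red above 0 and blue below 0. Fkbp5 and Klf9 have 0.89, and all pairs of the first 7 genes are at or above 0.597. Hif3a and Cdkn1a have 0.80 with each other, and with the first 7 genes they reach at most 0.564 (Hif3a with Sgk1).

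Across the 11988 genes, Klf9 ranked 4th, Zbtb16 7th, Tsc22d3 41st and Sgk1 65th in likeness to Fkbp5 by Pearson r over the 10 arrays. Map3k6 ranked 94th and Ddit4 196th, while Hif3a and Cdkn1a ranked 2611th and 2760th. The 5 most alike genes outside the members were Edem2 (r = 0.913), Klhl26 (0.911), Cyb5r1 (0.909), Ifitm3 (0.887) and Mlf2 (0.883). Of these Edem2, which takes part in the degradation of misfolded glycoproteins of the endoplasmic reticulum, measured -2.46 to -2.30 in OUM rats and -2.66 to -1.98 in naive rats, with naive rats spread on both sides of the OUM rats as for Fkbp5.

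The machinery that senses the hormone was read as well. Of 20 genes listed for the receptor, its chaperones, co-regulators and steroid enzymes, 16 were tested, with a median log2 difference of -0.013, with 1 gene lower and none higher when judged at an unadjusted p under 0.05, and none past an adjusted p of 0.05. At the unadjusted threshold, 5.33% of all genes tested were higher and 3.04% were lower. The lower gene was Hsp90aa1, the inducible HSP90 that holds the receptor, at -0.12 ± 0.05 (SE, adjusted p = 0.553 in limma, exact permutation p = 0.0238). Nr3c1, the glucocorticoid receptor, measured -2.34 to -1.73 in OUM rats and -2.24 to -1.91 in naive rats, a log2 difference of 0.052 ± 0.12 (exact permutation p = 0.690), and its second probe differed by -0.13 ± 0.17. Nr3c2, the mineralocorticoid receptor, differed by -0.049 ± 0.05 (exact permutation p = 0.365), and Hsd11b1, which regenerates active hormone inside cells, by 0.078 ± 0.07 (exact permutation p = 0.381). Nrip1, a co-regulator of nuclear receptors, differed by -0.12 (exact permutation p = 0.214), and its second probe by 0.058. The second probe of Nr3c2 differed by -0.016, and the other probes of Hsp90aa1 by -0.081 and -0.18.

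Other genes known to be induced by glucocorticoids gave a wider view. Of 38 listed, 34 were tested, of which 7 were higher and 2 lower when judged at an unadjusted p under 0.05. Beside these, 5.33% of all genes tested were higher and 3.04% were lower. None passed an adjusted p of 0.05, and the list had a median log2 difference of 0.099. That median was 0.16 within slide 1 and 0.023 within slide 2. Il6r, the interleukin-6 receptor, measured -2.92, -2.64, -2.85, -2.94 and -2.73 in OUM rats 1 to 5, against -3.52, -3.41, -3.59, -3.03 and -3.23 in naive rats 1 to 5, with no overlap and a difference of 0.54 ± 0.11 (SE, adjusted p = 0.255 in limma, exact permutation p = 0.00794). Naive rat 4, the highest naive rat, stood just below OUM rat 4, the lowest OUM rat, and both were on slide 2. Klf15, a metabolic regulator that the receptor induces directly, measured 1.16, 1.33, 1.32, 1.22 and 1.28 in OUM rats 1 to 5, against 0.66, 0.92, 0.61, 1.22 and 0.79 in naive rats 1 to 5. Naive rat 4 lay within the OUM range, and the difference of 0.42 ± 0.11 (adjusted p = 0.385 in limma, exact permutation p = 0.0238) was 0.52 on slide 1 and 0.027 on slide 2. Tle3, a Groucho-family co-repressor, differed by 0.18 ± 0.05 (adjusted p = 0.385 in limma, exact permutation p = 0.00794), with no overlap between the groups and 0.22 on slide 1 and 0.08 on slide 2. The other higher genes were Errfi1, Cebpb, Mt2A and Glul, at 0.28, 0.20, 0.32 and 0.22, and the lower genes were Arrdc3 and Birc3, at -0.28 and -0.14. Per1, a clock gene with a well-known receptor site, differed by 0.19 ± 0.20 (exact permutation p = 0.421), and its 3 highest arrays were OUM rats 4, 5 and 2. OUM rats 1 and 3 lay below every naive rat, and the difference was -0.086 on slide 1 and 0.53 on slide 2.

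Genes that glucocorticoids hold down, mostly of inflammation, formed a list of their own. Of 15 listed, 9 were tested and none was higher or lower at an unadjusted p under 0.05. The median difference was 0.12, and it was -0.081 on slide 1 and 0.43 on slide 2. Cxcl1 entered the test through the OUM arrays alone and is part of the 9 and of these medians, so their sign is not read as a result. The lowest p-values belonged to the adhesion molecule Icam1 at 0.19 and the chemokines Ccl2 at 0.16 and Cxcl1 at 0.48 (detected on 5 of 5 OUM and 2 of 5 naive arrays, so no exact fold), with exact permutation p-values of 0.103, 0.0714 and 0.119. The other 6, among them Il6 and Ptgs2, were too dim to be tested.

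The other signals that can drive single members were read in the same way. Among all genes tested, 5.33% were higher and 3.04% were lower at an unadjusted p under 0.05. Of 15 tested p53 targets other than Cdkn1a, 3 were higher and none lower at an unadjusted p under 0.05, Sesn2, Phlda3 and Aen at 0.20, 0.19 and 0.18, with a list median of 0.036. The second probe of Aen differed by 0.090, with an unadjusted limma p of 0.347. Of 16 tested targets of hypoxia, 2 were higher, Hk2 at 0.25 and Egln3 at 0.14, and none lower (the next by p was Ldha at -0.11), with a list median of -0.0094. Of 21 tested genes of fasting, FOXO and PPARA, Klf15 and Pdk2 were higher at 0.42 and 0.18. In this list 1 gene was lower at an unadjusted p under 0.05, and the list median was -0.037. Trim63 also passed that threshold but entered the test through the OUM arrays alone, being detected on 2 of 5 naive arrays. It is not counted as higher, though the 21 tested genes and their median include it. None of these passed an adjusted p of 0.05.

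Of 15 tested clock genes, 7 were higher and 1 was lower when judged at an unadjusted p under 0.05, and none passed the adjusted threshold. Beside this count and those of the cell type lists below, 5.33% of all genes tested were higher and 3.04% were lower. Counting by the brightest probe left out a probe of Npas2 at -0.71 and one of Per3 at 0.49, against -0.029 and 0.088 on the brightest. Dbp, a transcription factor of the clock's output, differed by 0.70 ± 0.12 (SE, adjusted p = 0.147 in limma) and was 0.63 on slide 1 and 0.74 on slide 2, and the activator Bmal1 differed by -0.48 ± 0.07 and the output factor Tef by 0.31 ± 0.04 (adjusted p = 0.104 for both). Over the 10 arrays Dbp had r = 0.459 with Fkbp5, 0.735 over slide 1 and 0.057 with the group means removed, against 0.840, 0.896 and 0.850 for Klf15, both chosen after their values were seen. Endothelial and mural cell markers, of which 3 of 12 were higher and none lower at an unadjusted p under 0.05, had a mean level of -1.76 to -1.61 in OUM rats and -1.83 to -1.71 in naive rats. Cldn5, a tight junction gene of vessels, differed by 0.28 ± 0.06 (adjusted p = 0.255 in limma) with no overlap between the groups, and Myh11 and Esam by 0.24 and 0.18. At the same threshold 1 of 10 macrophage genes and 1 of 10 fibroblast and meningeal genes were higher, 2 of 12 satellite glia and Schwann cell genes were higher and 1 was lower, and none of the tested neuronal, neutrophil, blood, muscle, adipose or pituitary genes was higher or lower. All 6 tested pituitary genes averaged higher in OUM, with a median difference of 1.17, and of 1.53 with the slide as a block. Their mean level was between -3.17 and 0.43 in OUM rats and between -4.88 and 0.0027 in naive rats. The time of day of dissection was not given in the sources used here, and clock genes and many glucocorticoid targets are known to follow it. The part of the clock, of vessels and of pituitary tissue in the members' levels was not tested.

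**Figure D5:**
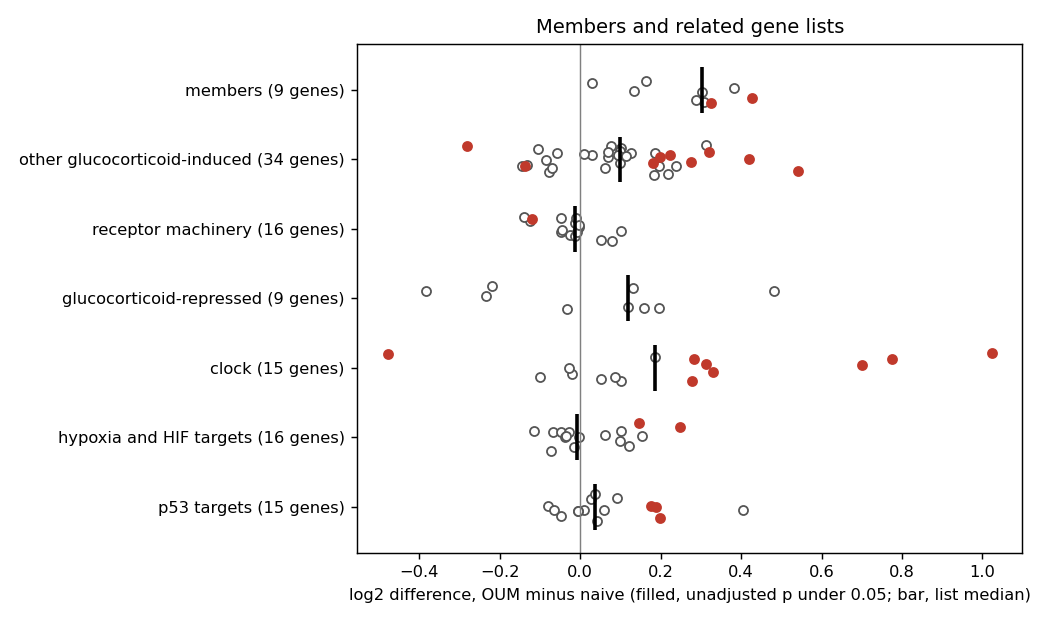
Log2 difference, OUM minus naive (x axis), of each tested gene of the members and of 6 related lists (y axis, genes in each in brackets), filled where the unadjusted p was under 0.05 and with a bar at the list median. The 9 tested members lie above 0 (Hif3a was detected on 3 of 5 naive arrays), the receptor machinery centres on -0.013, and the clock genes hold the widest spread, from Bmal1 at -0.48 to Ciart at 1.02.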

How the data were processed

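TG RNA of 5 OUM and 5 naive rats was measured with 1 array per rat. The authors scanned the 1-colour arrays with Agilent Feature Extraction 10.7.1.1, and the deposited intensity is its background-subtracted, detrended processed signal. The deposited flags (other values) mark outlier spots and spots well above background. The authors' GeneSpring signal table held that intensity divided by a constant per array and served as an alternative. Spots marked as outliers were left out, spots of a probe were averaged, and log2 intensity was taken relative to the array's 75th percentile over probes. Accessions were matched to symbols with a RefSeq table (18438 of 30367 probes named). A probe that was well above background in each rat of OUM, naive or both groups entered limma 3.58.1 in R 4.3.3 (two-sided, Benjamini-Hochberg over 21969 probes), and a gene was counted by its brightest probe. Intervals are 95%, and the number of arrays limits the precision. Correlations used 1e+05 permutations.

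The members and lists were chosen with earlier results of these data known. Named genes are all members, per list those past an adjusted p of 0.05 or otherwise the 3 lowest p (counts only for cell type lists other than vessels), 4 hormone genes (Nr3c1, Nr3c2, Hsd11b1, Per1) and the 5 genes most like Fkbp5, and other names were singled out afterwards. On simulated data with 200 of 21969 probes changed in the OUM and naive comparison, limma recovered 80.6% of those changed 1.5-fold. It also called 13 of 21769 unchanged probes. The simulated noise was normal and independent between probes, with 1 SD per probe for both groups and no slide difference. The share recovered therefore need not hold for the real arrays, where spreads differed between groups and differences between slides. Alternatives were other normalizations, filters, probe rules, slide and replicate blocks, single slides, tests, weights and each array left out. Normexp (offset 50) started from median rather than mean spot signals. Probe sequences were not used here. Some list genes are not reported here.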

Additional observations from a re-analysis of the deposited data

Results flagged for a closer look

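Of the 24 member probes by group checked, 4 held a rat far from the other 4 of its group, where chance marks about 1 in 20. In the same check 4 of 100 groups of list genes did. The 24 are not independent, since 2 probes of a gene can mark the same rat. Ddit4 in OUM rat 5 was 2.52 on the bright probe, against 2.87 to 2.98 in the other OUM rats, and -1.75 on the second probe, against -1.34 to -1.24, so both probes of the gene set that rat apart. The bright Cdkn1a probe was 4.14 in naive rat 4, against 3.84 to 3.88 in the other naive rats, and that rat was the only naive one on slide 2. Pdk4 in OUM rat 1 was -5.68, against -7.02 to -6.77 in the other OUM rats, and this was the only OUM array on which it was well above background. For Fkbp5 no rat was set apart by this measure in either group.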

How the results depend on the processing

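Across 28 alternatives no member passed an adjusted p of 0.05. The number of members at an unadjusted p under 0.05, 2 over all arrays, was 4 on slide 1 alone and 4 with array weights, and ran from 2 to 5 when 1 array was left out, with 4 without OUM rat 5 and 5 without naive rat 4. Among all genes 5.33% were higher and 3.04% lower over all arrays, and 5.09% and 4.92% without naive rat 4. That share is not given for the other alternatives, so their counts here and below have no background beside them. The median log2 difference of the 9 tested members, Hif3a included, was 0.30, and it was 0.296 over the 8 members detected on all 10 arrays. Over the 9 it was 0.15 with the normexp background and 0.16 without OUM rats 1 and 2 and naive rat 1 (rich in pituitary transcripts). On slide 2 alone it was -0.061 over the 9 and -0.071 over the 8. With 1 array left out the median over the 9 was 0.18 to 0.38. Of the other glucocorticoid-induced genes 9 were at an unadjusted p under 0.05, 4 on slide 2 alone and 7 to 12 with 1 array left out. Differences that turned round were, on slide 2 alone, those of Fkbp5 (-0.46), Zbtb16 (-0.96), Klf9 (-0.11), Ddit4 (-0.082, second probe -0.023) and Tsc22d3 (-0.061), for the bright Cdkn1a probe -0.098 on slide 1, -0.048 with the slide as a block, -0.040 without OUM rat 4 and -0.039 without OUM rat 5 (0.094 at most with 1 array left out), and for Zbtb16 -0.12 without those 3 pituitary-rich arrays. Map3k6 and Sgk1 kept an unadjusted p under 0.05 in 27 of 28 alternatives each, slide 2 alone, with 3 arrays, being the exception. The cause of these changes was not tested. With the replicate number as a block (replicate block), 3 members were at an unadjusted p under 0.05 and the median over the 9 was 0.303. Same-numbered rats did not deviate together (r from -0.0844 to 0.305), so the numbers were not read as pairs. The correlation of Fkbp5 with Tsc22d3, 0.789, was 0.588 without its 2 farthest arrays. Signals near background limit Hif3a, Zbtb16 and Pdk4.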
